A study of Mus musculus with 11 samples.

Results

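The genes described here act in mitosis and chromosome segregation, the steps by which a cell divides its copied chromosomes between its daughters. They were taken as a list of 50 gene symbols, and all 50 were found among the 23420 symbols of the count table and passed the filter on low counts. The list was chosen with earlier results of these data known. Its counts beside the shares of all genes therefore describe the list and do not test it. RNA was sequenced from the mandibular condylar fibrocartilage, the tissue that caps the jaw joint's condyle, with all of its cells kept together. Every animal was a C57BL/6 female that had been ovariectomized at 6 weeks of age, carried a pellet for 1 week and was 7 weeks old at harvest. The pellet held 17β-estradiol (E2, 0.01 mg, made for release over 60 days) or was a placebo (Plb), and the genotype was a knockout of estrogen receptor alpha, ERalphaKO in the labels and KO here, or wild type (WT). This gave 3 KO E2, 3 KO Plb, 3 WT E2 and 2 WT Plb samples, 11 in all. How the knockout was made, and whether each sample is a single animal, are not given in the labels. The tests therefore weigh each difference against the spread among the sequenced samples, part of which may be technical.

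Mitosis begins when cyclin-dependent kinase 1 and its cyclins become active, and it ends when the anaphase-promoting complex (APC/C) marks those cyclins and securin for destruction. In between, condensin and topoisomerase II compact the chromosomes, kinetochores attach them to the spindle, the spindle checkpoint delays anaphase until all are attached, and a contractile ring divides the cell. Many genes of this set are transcribed mainly in G2 and M phase, so their transcripts are widely read as marks of dividing cells. Condylar fibrocartilage grows from a layer of dividing progenitor cells near its surface, which mature into chondrocytes.

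Library totals ran from 15.7 to 25.5 M counts. Levels are given in CPM, counts per M of the library total scaled by the trimmed mean of M values (TMM), with samples in the order of their replicate numbers. Esr1, the gene for estrogen receptor alpha, had 3.41, 2.55 and 3.75 CPM in the KO E2 samples, against 4.86, 3.99 and 2.68 CPM in the KO Plb samples, and 7.89, 6.76 and 6.43 CPM in the WT E2 samples, against 13.4 and 6.60 CPM in the WT Plb samples. Its level was lower in KO E2 than in WT E2 samples, with a log2 difference of -1.11 (SE 0.28, adjusted p = 0.0257), and every KO library was below every WT library, but it was not at 0 in any KO library. Whether the counted reads lie in a deleted part of the gene is not known. The ribosomal precursor Rn45s took 16.04% of the counts of WT Plb sample 2, against 1.83% to 3.13% in the other libraries, and the main results are given with and without it. Among the cartilage markers, Col2a1 ran from 3706 to 14720.4 CPM and Acan from 855 to 1800.1 CPM over the libraries. Most of the sum of the 15 cartilage and fibrocartilage markers, 114924 to 179161 CPM, came from Col1a1 and Col1a2, which bone also expresses, and the bone marker Spp1 (5187 to 8739 CPM) and the osteoclast marker Acp5 (2879 to 5850.3 CPM) were high as well.

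The mitosis genes had higher levels in estradiol than in placebo samples of both genotypes, with larger differences in KO, although no single gene passed the test of the difference between genotypes and its size rested on the WT Plb samples. In KO E2 against KO Plb samples, 50 of 50 genes rose, against 2.36% of all genes tested, with a median log2 difference of 1.27 (range 0.63 to 1.47). In WT E2 against WT Plb samples, 50 of 50 had a positive difference, with a median of 0.66 (range 0.28 to 1.23), but 4 rose by the test, against 0.654% of all genes tested. The WT median was 0.95 without WT Plb sample 2 and 0.42 without WT Plb sample 1. Summed over the 50 genes, the level was 2134, 1879 and 1479 CPM in the KO E2 samples, against 766, 779 and 839 CPM in the KO Plb samples. The sum was 1673, 1367 and 1224 CPM in the WT E2 samples, against 778 and 1069 CPM in the WT Plb samples. The group means of that sum were 1831 ± 330.2 CPM in KO E2 (SD, n = 3), 795 ± 39.3 CPM in KO Plb (SD, n = 3), 1421 ± 229 CPM in WT E2 (SD, n = 3) and 923 ± 206 CPM in WT Plb (SD, n = 2). The KO E2 and WT E2 sums overlap, as do the KO Plb and WT Plb sums, whereas no placebo sample of either genotype reached any estradiol sample. In a bulk sample, more dividing cells and more RNA of these genes per cell cannot be told apart.

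**Figure D1:**
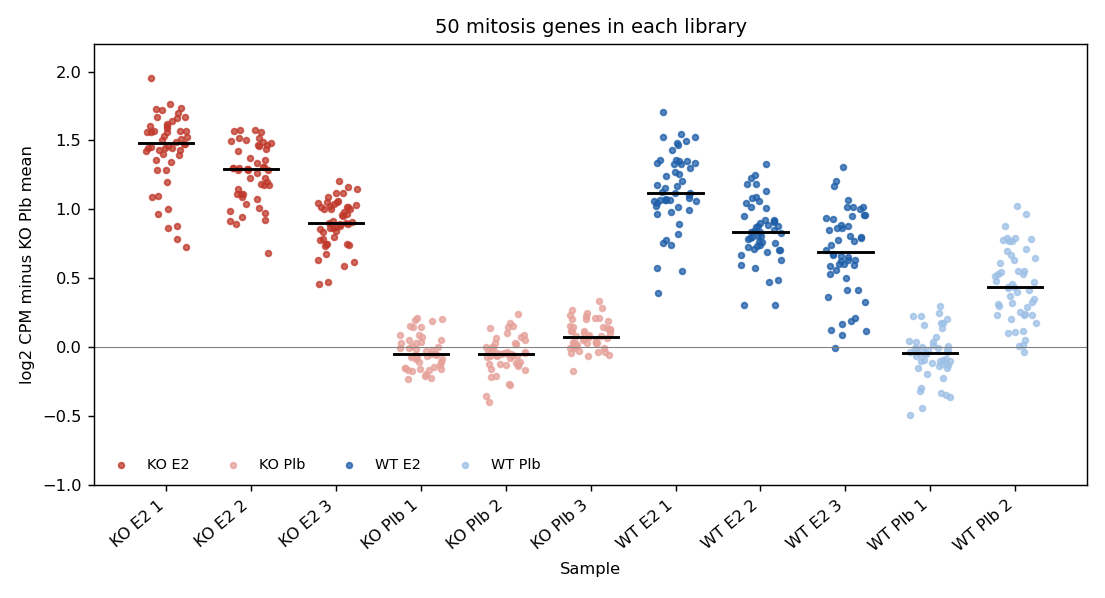
Each dot is 1 of the 50 mitosis genes in 1 sample, as log2 CPM minus the mean log2 CPM of the KO Plb samples (y axis), and black lines are medians over the 50 genes. The medians were 1.48, 1.29 and 0.90 in the KO E2 samples, -0.05, -0.05 and 0.08 in the KO Plb samples, 1.12, 0.83 and 0.69 in the WT E2 samples, and -0.04 and 0.44 in the WT Plb samples.

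Within the KO E2, WT E2 and WT Plb groups, most of the genes moved up and down together from sample to sample. In KO Plb the order was less shared. Samples 1, 2 and 3 were the highest for 12, 8 and 30 genes and the lowest for 24, 22 and 4. KO E2 sample 1 was the highest of its group for 36 genes and KO E2 sample 3 the lowest for 48. WT E2 sample 1 was the highest of its group for 49 genes, and WT Plb sample 2 was above WT Plb sample 1 for 49. The coefficient of variation had a median over the genes of 19.9% in KO E2, 9.28% in KO Plb, 17.7% in WT E2 and 26.0% in WT Plb samples, so the KO Plb samples were the most alike. Every KO E2 sample lay above every placebo sample of both genotypes for 49 genes, against 7.66% of all 14531 genes tested. The exception was Cdk1, with 36.1 CPM in KO E2 sample 3 and 36.2 CPM in WT Plb sample 2. Every WT E2 sample lay above every placebo sample of both genotypes for 40 genes, against 7.61% of all genes.

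Sequence upstream of the genes is shown because all 50 genes rose in KO and because many promoters of G2 and M phase genes are known to share 2 short elements. One is the cell cycle homology region, TTTGAA, which is bound by the MuvB core of the DREAM and MYBL2 complexes. The other is CCAAT, the box bound by NF-Y. RefSeq promoter entries, which cover 250 bases before to 50 bases after the start on build GRCm38.p6, were found for 42 of the 50 genes. Aurkb, Ccna2, Cdc25c, Cdca2, Kif20a, Smc4, Spc24 and Tpx2 had no entry. TTTGAA or its reverse TTCAAA lay in 32 of the 42 (76.2%), against 20.2% of 27025 genes with an entry. CCAAT or its reverse ATTGG lay in 31 of the 42 (73.8%), against 41.1% of those genes, and the 2 motifs, which can share at most 1 base, occurred together in 27 of the 42 (64.3%), against 7.97%. Of the genes with TTTGAA, 28 had a copy between 50 bases before and 50 bases after the start. The 120 bases just before the start are printed for 5 genes, 5′ to 3′ on the strand of the gene, with both motifs and their reverses in capitals. Top2a had the smallest p for a difference between genotypes, Kif11 the largest rise in KO, Ccnb2 the highest level per length and Hmmr a rise in WT as well, and Birc5 holds neither motif in its 300-base entry.
Top2a (chr11:99024190-99024309, minus strand): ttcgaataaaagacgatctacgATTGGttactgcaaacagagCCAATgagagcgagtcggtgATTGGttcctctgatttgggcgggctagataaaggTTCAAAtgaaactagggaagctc
Kif11 (chr19:37376262-37376381, plus strand): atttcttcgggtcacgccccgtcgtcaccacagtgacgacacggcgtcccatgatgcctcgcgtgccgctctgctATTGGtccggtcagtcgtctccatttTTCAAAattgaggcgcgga
Ccnb2 (chr9:70421555-70421674, minus strand): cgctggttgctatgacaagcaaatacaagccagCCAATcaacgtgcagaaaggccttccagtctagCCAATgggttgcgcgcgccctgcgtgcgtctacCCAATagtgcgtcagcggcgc
Hmmr (chr11:40733438-40733557, minus strand): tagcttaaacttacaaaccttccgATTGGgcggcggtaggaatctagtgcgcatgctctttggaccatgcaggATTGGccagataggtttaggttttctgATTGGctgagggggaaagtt
Birc5 (chr11:117849117-117849236, plus strand): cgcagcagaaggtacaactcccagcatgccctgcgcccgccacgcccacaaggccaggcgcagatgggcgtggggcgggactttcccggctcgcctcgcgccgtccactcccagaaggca
Top2a and Kif11 carry TTCAAA close to the start, beside 3 and 1 copies of CCAAT or its reverse in the printed stretch. Ccnb2 and Hmmr show 3 CCAAT boxes each, and their copy of TTTGAA nearest the start lies just after it, outside the printed bases. Genes with and without TTTGAA had close median effects. The median log2 difference of KO E2 against KO Plb was 1.27 for the 32 genes with it and 1.28 for the 10 without it, and that of WT E2 against WT Plb was 0.67 with it and 0.60 without it. A match is a description of these letters and not a measured binding site.

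The comparison of KO E2 with KO Plb samples asks what estradiol does where estrogen receptor alpha is knocked out. Genes were called where edgeR's quasi-likelihood test gave an adjusted p under 0.05, the Benjamini-Hochberg method being applied across all 14531 genes tested. The 50 of 50 genes called higher stand against 2.36% of all genes called higher and 0.365% called lower, and they made up 14.6% of the 343 genes called higher. Their adjusted p ran from 0.00197 for Top2a and Smc2 to 0.0487 for Cenpe and Cdc25c. Every KO E2 sample was above every KO Plb sample for all 50 genes, against 12.4% of all genes, and each of the 50 had an unadjusted p under 0.05, against 9.66% of all genes. The fold was at least 2 for 41 genes, against 4.47% of all genes, and the 9 below it were Smc4, Mad2l1, Espl1, Spc24, Ncapd2, Ttk, Smc2, Kif4 and Cdc25c.

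Among the 8 genes of mitotic entry, the cyclins, kinases and phosphatase that start mitosis, the median log2 difference in KO was 1.24. Ccna2, cyclin A2, which drives S phase and the onset of mitosis, had 93.6, 84.04 and 66.3 CPM in the KO E2 samples, against 27.4, 29.4 and 35.3 CPM in the KO Plb samples. Ccnb2, cyclin B2, a partner of cyclin-dependent kinase 1, had 38.2, 37.5 and 26.1 CPM in the KO E2 samples, against 12.3, 16.5 and 13.3 CPM in the KO Plb samples. Every KO E2 value of either cyclin lay above every KO Plb value, with a log2 difference of 1.40 (SE 0.19, adjusted p = 0.00532) for Ccna2 and a log2 difference of 1.27 (SE 0.18, adjusted p = 0.00532) for Ccnb2. Cdc25c, the phosphatase that removes inhibitory phosphates from cyclin-dependent kinase 1, had 7.03, 7.30 and 5.50 CPM in the KO E2 samples, against 2.96, 3.47 and 3.48 CPM in the KO Plb samples. Its groups also stayed apart, with a log2 difference of 1.00 (SE 0.24, adjusted p = 0.0487). The kinase Cdk1 itself, its cyclin Ccnb1, the mitotic kinases Plk1 and Aurka, and Cdca3 rose by log2 differences of 1.20 to 1.31.

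The spindle checkpoint holds back anaphase while any kinetochore is unattached, and its 4 genes rose with a median of 1.00. Bub1, the kinase that recruits checkpoint proteins to kinetochores, had 20.1, 20.2 and 16.2 CPM in the KO E2 samples, against 8.12, 6.71 and 7.14 CPM in the KO Plb samples. Bub1b, which encodes BUBR1, a part of the complex that inhibits the APC/C, had 45.00, 39.4 and 27.97 CPM in the KO E2 samples, against 16.2, 17.1 and 17.1 CPM in the KO Plb samples. The KO E2 and KO Plb values of both were far apart, with a log2 difference of 1.36 (SE 0.19, adjusted p = 0.00532) for Bub1 and a log2 difference of 1.15 (SE 0.17, adjusted p = 0.00551) for Bub1b. Ttk, the kinase that starts checkpoint signalling, and Mad2l1, which encodes the checkpoint protein MAD2, rose by less, with log2 differences of 0.85 and 0.83.

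Of the 3 genes that promote anaphase, Espl1 encodes separase, the protease that cuts cohesin, and Ube2c encodes a ubiquitin-conjugating enzyme of the APC/C. Espl1 had 27.9, 27.01 and 21.5 CPM in the KO E2 samples, against 15.01, 13.9 and 13.9 CPM in the KO Plb samples. Ube2c had 37.1, 41.5 and 28.5 CPM in the KO E2 samples, against 12.5, 13.5 and 16.6 CPM in the KO Plb samples. Both were higher in every KO E2 sample, with a log2 difference of 0.83 (SE 0.13, adjusted p = 0.00715) for Espl1 and a log2 difference of 1.33 (SE 0.21, adjusted p = 0.00872) for Ube2c. The third, Cdc20, the activator of the APC/C in anaphase, rose by a log2 difference of 1.15. In the GENCODE annotation of GRCm38, 22.8% of Ube2c's exonic bases lie opposite exons of the muscle troponin gene Tnnc2, and whether the counting used strand is not given in the sources used here. Tnnc2 had 0.167, 0.356 and 0.313 CPM in the KO E2 samples, against 30.9, 46.7 and 4.42 CPM in the KO Plb samples. In WT Plb samples 1 and 2, Tnnc2 had 1.78 and 89.7 CPM and Ube2c 13.1 and 24.4 CPM. Sample 2 was the higher WT Plb sample for 49 of the 50 genes. In KO Plb the sample with the lowest Tnnc2 level, sample 3, had the highest Ube2c level. The part of shared reads in the Ube2c values was not tested.

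The 7 genes of the kinetochore and centromere, the platform on each chromosome that binds spindle microtubules, had a median of 1.29. Nuf2 and Spc25 encode 2 of the 4 subunits of the NDC80 complex, which grips the microtubule. Nuf2 had 27.9, 23.4 and 18.2 CPM in the KO E2 samples, against 8.03, 10.5 and 9.98 CPM in the KO Plb samples. Spc25 had 23.4, 19.1 and 14.7 CPM in the KO E2 samples, against 7.06, 6.56 and 8.58 CPM in the KO Plb samples. The KO E2 samples were above the KO Plb samples throughout, with a log2 difference of 1.29 (SE 0.18, adjusted p = 0.00532) for Nuf2 and a log2 difference of 1.36 (SE 0.20, adjusted p = 0.00651) for Spc25. The other subunits were less alike, since Ndc80 rose by 1.37 and Spc24 by 0.84 on the log2 scale. Cenpe, a kinesin that carries chromosomes to the spindle's middle, had 31.99, 26.7 and 21.8 CPM in the KO E2 samples, against 12.6, 8.49 and 12.02 CPM in the KO Plb samples, with a log2 difference of 1.28 (SE 0.29, adjusted p = 0.0487). Cenpa, the histone that marks centromeres, and Cenpf rose by 1.16 and 1.36.

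All 3 genes of the chromosomal passenger complex, which corrects faulty attachments and later sits at the spindle midzone, rose, with a median of 1.29. Aurkb, its kinase, had 28.8, 24.5 and 20.3 CPM in the KO E2 samples, against 9.93, 9.14 and 11.04 CPM in the KO Plb samples. Birc5, which encodes survivin, had 31.2, 31.2 and 23.8 CPM in the KO E2 samples, against 12.2, 12.5 and 13.7 CPM in the KO Plb samples. The KO Plb values of both were below every KO E2 value, with a log2 difference of 1.29 (SE 0.18, adjusted p = 0.00532) for Aurkb and a log2 difference of 1.17 (SE 0.15, adjusted p = 0.00404) for Birc5. Cdca8, which encodes borealin, rose by 1.40.

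The 8 genes of chromosome structure had a median of 1.20 and the widest range, from 0.63 to 1.47. Top2a, the topoisomerase that untangles sister DNA, had 171, 156 and 119 CPM in the KO E2 samples, against 54.2, 55.6 and 59.1 CPM in the KO Plb samples. Mki67, whose protein Ki-67 coats mitotic chromosomes and is the usual stain for dividing cells, had 182, 178 and 138 CPM in the KO E2 samples, against 55.5, 64.2 and 60.4 CPM in the KO Plb samples. These 2 genes were more than 2 times as high in each KO E2 sample as in any KO Plb sample, with a log2 difference of 1.40 (SE 0.15, adjusted p = 0.00197) for Top2a and a log2 difference of 1.47 (SE 0.20, adjusted p = 0.00562) for Mki67. The genes of condensin I gave differences from 0.63 to 1.30. Smc2, an ATPase subunit of condensin, had 54.9, 50.6 and 43.2 CPM in the KO E2 samples, against 26.7, 24.5 and 26.2 CPM in the KO Plb samples, with a log2 difference of 0.94 (SE 0.10, adjusted p = 0.00197). Smc4, its partner, had 123, 119.7 and 103 CPM in the KO E2 samples, against 74.95, 74.4 and 74.2 CPM in the KO Plb samples, with a log2 difference of 0.63 (SE 0.09, adjusted p = 0.00532), the smallest difference of the 50 genes. Ncapd2 rose by 0.84, Ncaph by 1.09 and Ncapg by 1.30, and Cdca2, a chromatin-bound partner of protein phosphatase 1, by 1.33.

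The 10 genes of spindle and chromosome motors had a median of 1.28. Kif11, the kinesin that pushes the spindle poles apart, had 70.8, 62.6 and 48.9 CPM in the KO E2 samples, against 21.8, 21.3 and 22.4 CPM in the KO Plb samples. Kif22, a kinesin that moves chromosome arms, had 31.1, 32.4 and 22.5 CPM in the KO E2 samples, against 11.03, 12.1 and 11.1 CPM in the KO Plb samples. The KO Plb samples lay close together and far below the KO E2 samples for both, with a log2 difference of 1.47 (SE 0.17, adjusted p = 0.00402) for Kif11, the largest difference of the 50 genes, and a log2 difference of 1.33 (SE 0.16, adjusted p = 0.00402) for Kif22. The kinesins Kif15, Kif2c, Kif18a and Kif4 rose by 1.24, 1.24, 1.20 and 0.99, the spindle factors Tpx2 and Nusap1 by 1.15 and 1.42, and the microtubule-associated Hmmr and Troap by 1.40 and 1.36.

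The 7 genes of cytokinesis, the division of the cell body, had a median of 1.27. Ect2, the exchange factor that switches on RhoA at the cell's middle, had 35.3, 26.9 and 24.04 CPM in the KO E2 samples, against 12.3, 11.3 and 11.98 CPM in the KO Plb samples. Kif20b, a kinesin of late mitosis, had 26.1, 19.8 and 16.4 CPM in the KO E2 samples, against 9.30, 8.77 and 9.34 CPM in the KO Plb samples. Neither gene overlapped between the groups, with a log2 difference of 1.27 (SE 0.18, adjusted p = 0.00532) for Ect2 and a log2 difference of 1.18 (SE 0.17, adjusted p = 0.00532) for Kif20b. Anln, the actin-binding scaffold of the contractile ring, had 84.5, 44.9 and 45.3 CPM in the KO E2 samples, against 19.7, 20.1 and 26.3 CPM in the KO Plb samples, with a log2 difference of 1.40 (SE 0.30, adjusted p = 0.0453). KO E2 sample 1 had nearly 2 times the Anln level of the other KO E2 samples. A quasi-likelihood fit in edgeR with replicate number as a block, over all 11 samples of both genotypes, served as an alternative. There Anln (log2 1.36, adjusted p = 0.0685) and the midzone protein Prc1 (log2 1.24, adjusted p = 0.0676) lost the call. The other 48 genes kept it. Kif14, Kif23 and Kif20a, kinesins of the midzone, rose by 1.41, 1.27 and 1.06.

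**Figure D2:**
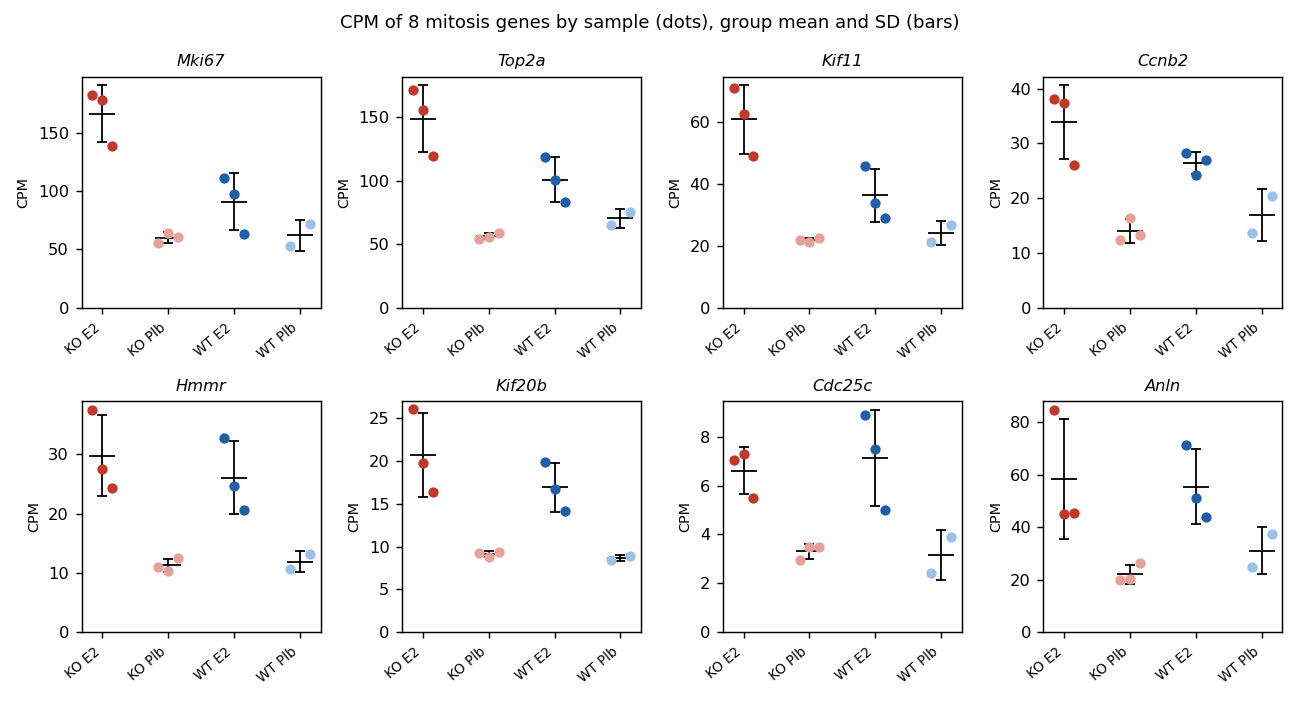
CPM (y axis, from 0) of 8 mitosis genes in each sample (dots) of the 4 groups, with the group mean and SD (bars; n = 3, and n = 2 for WT Plb). For Mki67, Top2a and Kif11 the KO E2 samples lie above all other samples, whereas for Hmmr, Kif20b, Cdc25c and Anln the WT E2 samples reach the KO E2 range.

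The number of calls in KO depended on the samples at hand, while the direction did not. Without KO Plb sample 1 the test called 27 genes, against 0.691% of all genes called higher. Without KO Plb sample 2 it called 29, against 0.934%, and without KO E2 sample 2 it called 33, against 0.831%. The share of all genes thus fell as well, from 2.36% in the main fit. Each of the 50 genes kept a positive difference and an unadjusted p under 0.05 in all 20 alternatives run. Over those alternatives the largest adjusted p of any gene was 0.183 and the smallest log2 difference 0.58.

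Markers of some blood cells moved with the mitosis genes in KO. The 15 neutrophil lineage markers summed to 1309, 4733 and 1640 CPM in the KO E2 samples, against 1.61, 765 and 171 CPM in the KO Plb samples, with 15 of 15 differences positive and 1 gene, Fcnb, called. The 15 B cell lineage markers summed to 393, 409 and 231 CPM in the KO E2 samples, against 248, 192 and 117 CPM in the KO Plb samples, with 14 of 14 tested differences positive and 1 gene, Blnk, called. Erythroid markers summed to 20.7, 229.8 and 155 CPM in the KO E2 samples, against 8.88, 73.4 and 20.2 CPM in the KO Plb samples. Of these, 7 of 7 tested differences were positive, but 0 were called and the groups overlapped for each. Hba-a1, Hba-a2, Hbb-b1 and Hbb-b2 were listed at 0 in all 11 libraries. Myb, a gene of blood progenitors, was called higher in KO E2 samples, the only such gene of 11 tested. Skeletal muscle markers ran the other way, at 14.7, 11.3 and 15.1 CPM in the KO E2 samples, against 541, 773 and 87.9 CPM in the KO Plb samples. There 13 of 14 tested differences were negative and 0 were called. The part of any of these cells in the result was not tested.

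Within the KO E2 samples, the order followed that of the mitosis genes for some of these markers and not for others. Myb had 77.8, 70.5 and 38.5 CPM in the KO E2 samples, against 28.8, 20.6 and 16.01 CPM in the KO Plb samples. In KO E2 this is the order of the mitosis sums, and the B cell lineage sum was also lowest in KO E2 sample 3. In KO Plb the order was the reverse, with mitosis sums of 766, 779 and 839 CPM and B cell lineage sums of 248, 192 and 117 CPM. Neutrophil markers had another order. KO Plb samples 1 and 2 had nearly equal mitosis sums, at 766 and 779 CPM, while their neutrophil sums were 1.61 and 765 CPM, and Elane, Ms4a3, Fcnb, Ltf and Mmp8 had 0 counts in KO Plb sample 1, which allows a level of up to 0.127 CPM each. KO E2 sample 1 had the highest mitosis sum of its group and the lowest neutrophil sum. In WT the lists of other cells did not move one way. The neutrophil sum was 8.76, 44.4 and 10.6 CPM in the WT E2 samples, against 226 and 509 CPM in the WT Plb samples, and the B cell lineage sum 19.4, 22.9 and 22.8 CPM in the WT E2 samples, against 80.9 and 72.4 CPM in the WT Plb samples, with 7 of 14 B cell markers called lower. Myb was also called lower in WT E2 samples. Macrophage and osteoclast markers were higher, as the mitosis genes were. The macrophage sum was 1220, 1197 and 1501 CPM in the WT E2 samples, against 1064 and 1115 CPM in the WT Plb samples, with 9 of 10 tested differences positive, 8 of the 10 at an unadjusted p under 0.05 and a median log2 difference of 0.54. The osteoclast sum was 13223, 12905.5 and 13294 CPM in the WT E2 samples, against 11144 and 9265 CPM in the WT Plb samples, with 10 of 10 positive and Acp5 and Ocstamp called. Both cell types come from the blood lineage, and osteoclasts resorb bone and calcified cartilage. In KO the same lists had 5 of 10 and 3 of 10 positive, with medians of -0.01 and -0.07. Endothelial markers were positive in 9 of 10 in WT, with Emcn called, and in 0 of 10 in KO. The erythroid sum was 26.2, 25.4 and 26.3 CPM in the WT E2 samples, against 10.1 and 17.9 CPM in the WT Plb samples, with 1 of 7 tested differences positive. Muscle markers summed to 262, 55.0 and 34.3 CPM in the WT E2 samples, against 43.0 and 1255 CPM in the WT Plb samples. The part of these cells in the WT result was not tested.

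**Figure D3:**
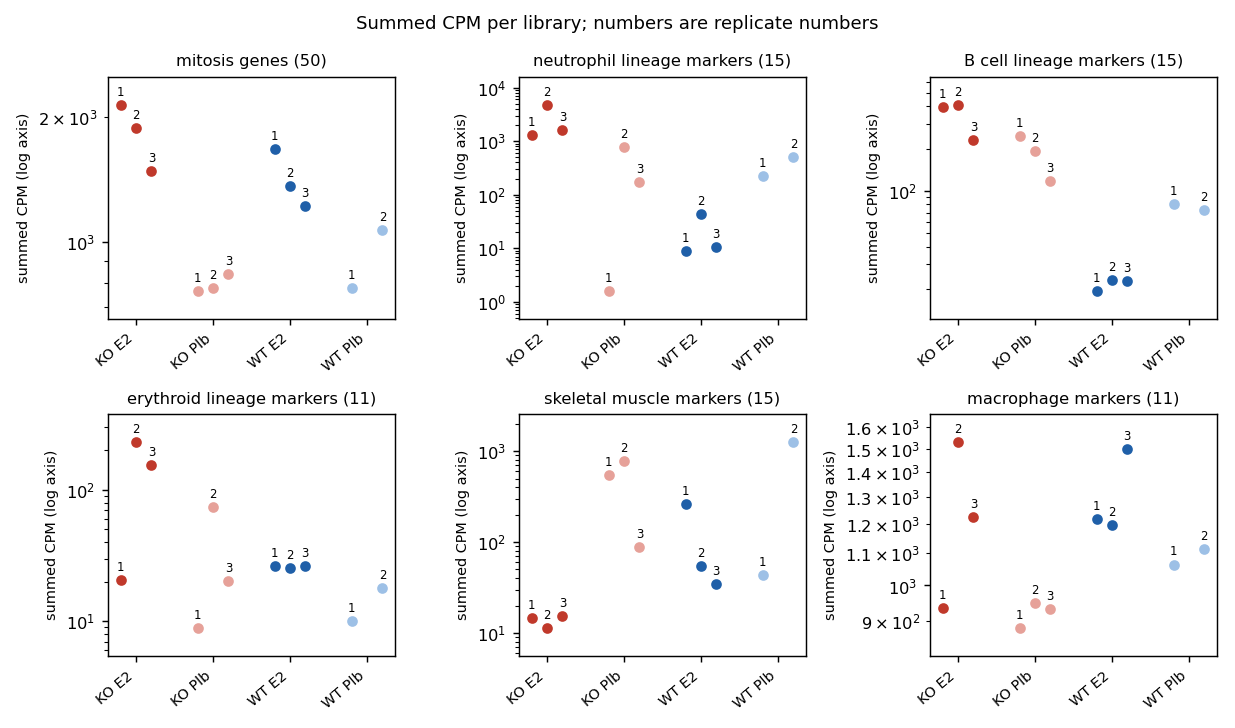
Summed CPM (log axis) in each sample, marked by its replicate number, of the 50 mitosis genes and of 5 lists of cell type markers. The mitosis sum is higher in every estradiol sample than in any placebo sample, while neutrophil and B cell lineage sums are higher in KO E2 than in WT E2 samples and lower in WT E2 than in WT Plb samples.

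In WT E2 against WT Plb samples, 4 of the 50 genes rose and 0 fell, against 0.654% of all genes called higher and 0.895% called lower. They were Hmmr, Cdca2, Kif20b and Troap, from 3 of the 8 roles. An unadjusted p under 0.05 with a positive difference was found for 47 of the 50, against 6.15% of all genes, and every WT E2 sample was above both WT Plb samples for 40, against 13.2% of all genes. The fold was at least 2 for Hmmr, Troap and Cdc25c, against 1.61% of all genes.

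Hmmr, a spindle-associated protein that also binds hyaluronan, had 32.8, 24.7 and 20.7 CPM in the WT E2 samples, against 10.6 and 13.2 CPM in the WT Plb samples, with a log2 difference of 1.14 (SE 0.22, adjusted p = 0.0294). Cdca2 had 11.6, 9.93 and 8.37 CPM in the WT E2 samples, against 4.41 and 5.72 CPM in the WT Plb samples, with a log2 difference of 0.98 (SE 0.20, adjusted p = 0.0294). In both genes every WT E2 sample was well above both WT Plb samples. Kif20b had 19.9, 16.7 and 14.1 CPM in the WT E2 samples, against 8.40 and 8.91 CPM in the WT Plb samples, with a log2 difference of 0.97 (SE 0.20, adjusted p = 0.0304). Troap, a spindle-associated protein, had 10.5, 8.28 and 7.67 CPM in the WT E2 samples, against 3.28 and 4.29 CPM in the WT Plb samples, with a log2 difference of 1.23 (SE 0.27, adjusted p = 0.0466). WT E2 sample 1 was the highest of its group for each of these 4 genes.

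The WT differences of Top2a, Mki67, Smc4 and Kif11, genes that also differed between KO E2 and WT E2 samples, did not pass. Top2a had 119, 101 and 82.8 CPM in the WT E2 samples, against 64.8 and 75.7 CPM in the WT Plb samples, with a log2 difference of 0.52 (SE 0.17, adjusted p = 0.157). Mki67 had 111, 97.7 and 63.6 CPM in the WT E2 samples, against 52.4 and 71.6 CPM in the WT Plb samples, and here the lowest WT E2 sample lay between the WT Plb samples, with a log2 difference of 0.55 (SE 0.22, adjusted p = 0.29). Smc4 had 97.6, 92.1 and 80.99 CPM in the WT E2 samples, against 73.4 and 75.1 CPM in the WT Plb samples, with a log2 difference of 0.28 (SE 0.10, adjusted p = 0.197). Kif11 had 45.8, 33.8 and 29.1 CPM in the WT E2 samples, against 21.3 and 26.8 CPM in the WT Plb samples, all WT E2 samples above both WT Plb samples, with a log2 difference of 0.60 (SE 0.20, adjusted p = 0.177). The 10 genes whose WT samples overlapped were Plk1, Aurka, Ttk, Cenpe, Cenpf, Spc24, Cdca8, Ncapd2, Mki67 and Kif14.

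The result in WT rested on the 2 WT Plb samples and on the set of WT E2 samples. Leaving out WT Plb sample 2, the library rich in Rn45s, gave a median log2 difference of 0.95, with 50 of 50 positive. Leaving out WT Plb sample 1 gave a median of 0.42, with 49 of 50 positive. In either case the other WT Plb sample stands alone and is assumed to vary like the samples of the other groups. Leaving out WT E2 sample 1 or WT E2 sample 2 gave 0 called genes, against 0.387% and 0.415% of all genes called higher. Leaving out KO Plb sample 1, which shares the estimate of spread, gave 2, against 0.546%. DESeq2 called 16 in place of 4, against 1.32%. Without WT E2 sample 1 an unadjusted p under 0.05 was left for 30 genes.

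**Figure D4:**
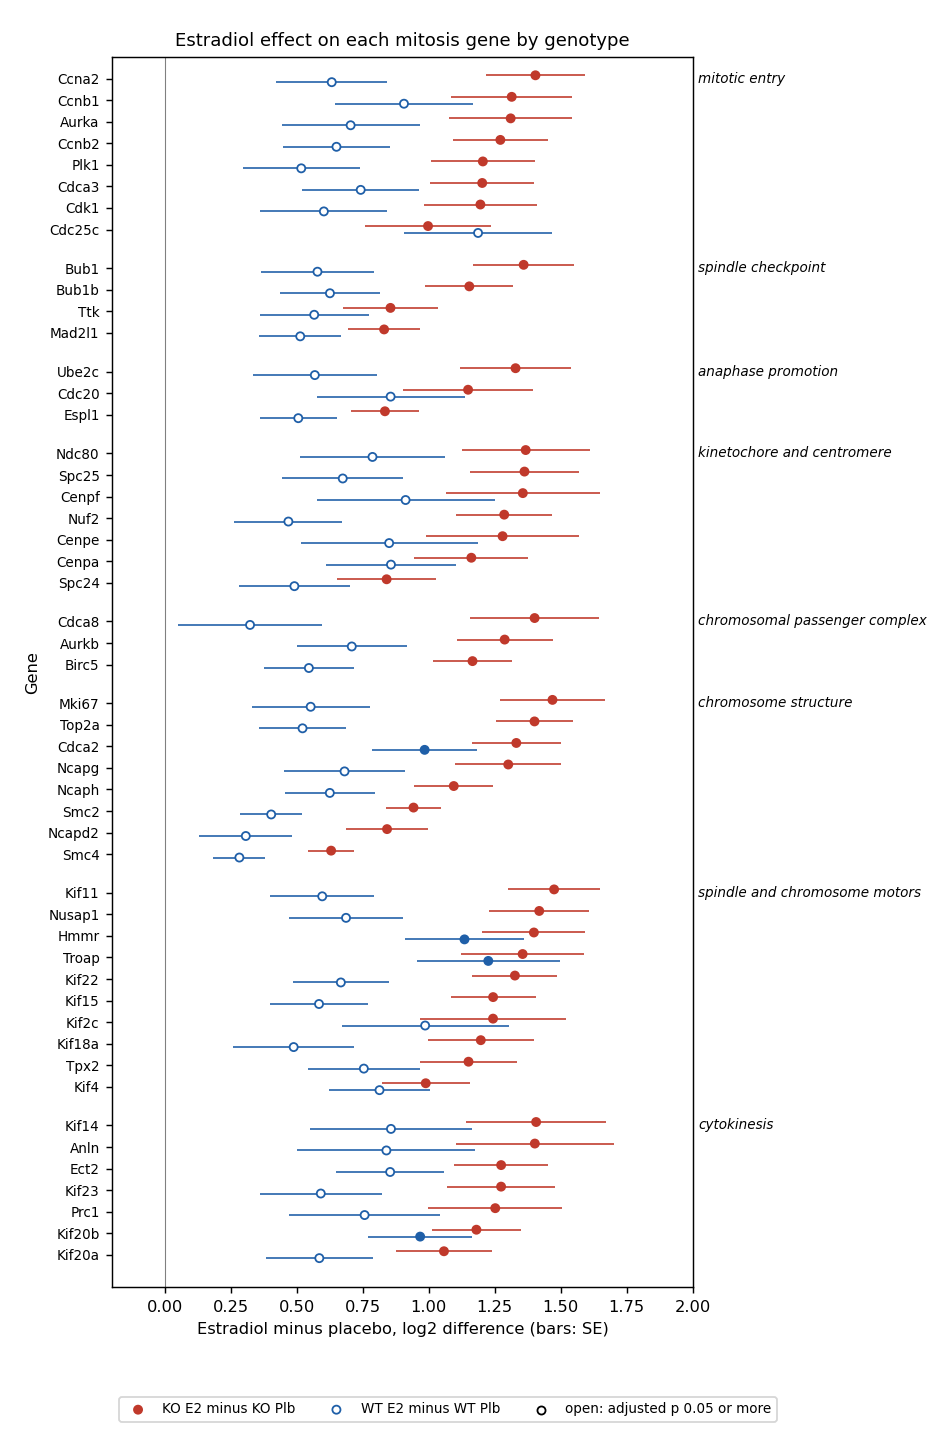
Log2 difference of estradiol against placebo (x axis, bars are SE) for each of the 50 mitosis genes, grouped by role, in KO (red, upper symbol) and in WT (blue, lower symbol), with filled symbols for an adjusted p under 0.05. All symbols lie right of 0, all 50 red symbols are filled and 4 blue ones are, and the red symbol lies right of the blue one for 49 genes, Cdc25c being the exception.

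The estradiol effect was tested for a difference between the genotypes, as the KO effect minus the WT effect. In edgeR's quasi-likelihood test 0 of the 50 genes passed, against 0.84% of all genes called with a positive and 0.31% with a negative difference. DESeq2 called 3, against 2.24% of all genes with a positive difference, and limma-voom called 0, against 0.275%. The difference was positive for 49 of 50, with a median of 0.54 on the log2 scale (range -0.19 to 1.08), and 20 genes had an unadjusted p under 0.05, against 7.2% of all genes with a positive difference. All 50 values come from the same samples, and most genes moved together within the samples of KO E2, WT E2 and WT Plb. The count of signs is therefore not a count of independent results. The smallest adjusted p was that of Top2a, whose effect was larger in KO by 0.88 on the log2 scale (95% interval 0.40 to 1.35, adjusted p = 0.0804). Smc2 followed, larger by 0.54 on the log2 scale (95% interval 0.20 to 0.88, adjusted p = 0.131), and Kif11, larger by 0.88 on the log2 scale (95% interval 0.31 to 1.45, adjusted p = 0.147). At the other end, Cdc25c differed by -0.19 on the log2 scale (95% interval -0.98 to 0.60, adjusted p = 0.927), and Troap by 0.13 on the log2 scale (95% interval -0.64 to 0.90, adjusted p = 0.957), so their intervals include both a larger and a smaller effect in KO. Without WT Plb sample 2 the median was 0.24 and 45 of 50 differences were positive, Cdc20, Kif2c, Spc24 and Troap turning negative beside Cdc25c, and without WT Plb sample 1 the median was 0.75 and all 50 were positive. The number with an unadjusted p under 0.05 moved both ways when a library outside WT Plb was left out. It was 11 without KO E2 sample 1, and 13 without KO E2 sample 2, KO Plb sample 1, WT E2 sample 2 or WT E2 sample 3. It was 15 without KO Plb sample 2, 17 without KO Plb sample 3, and 27 without KO E2 sample 3 or WT E2 sample 1. Neutrophil and B cell lineage markers differed between the genotypes in the same direction, with 15 of 15 and 14 of 14 positive and 2 and 7 called. Macrophage and osteoclast markers went mostly the other way, with 1 of 10 and 0 of 10 positive and medians of -0.43 and -0.40. The part of these cells in the result was not tested.

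KO E2 and WT E2 samples, which carried the same pellet, differed in 7 of the 50 genes, all higher in KO E2, against 7.27% of all genes called higher and 4.2% called lower. The median log2 difference over the 50 genes was 0.30, and 48 were positive. Of the 7, 5 belonged to the 8 genes of chromosome structure (Mki67, Top2a, Ncapd2, Smc2 and Smc4) and 2 to the 10 spindle and chromosome motors (Kif11 and Kif15), and 0 to the other 6 roles. Differences that did not pass were of like size in some of those roles. They reached 0.56 in cytokinesis, 0.51 in the chromosomal passenger complex and 0.47 in kinetochore and centromere, against a median of 0.50 in chromosome structure. Every KO E2 sample was above every WT E2 sample for 6 genes, a share below the 17.7% of all genes with that property. In the same comparison 14 of 14 B cell lineage and 11 of 15 neutrophil markers were called higher in KO E2 samples. Of the macrophage and osteoclast markers, 7 of 10 and 6 of 10 were called lower. The part of these cells in the result was not tested.

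Mki67 had 182, 178 and 138 CPM in the KO E2 samples, against 111, 97.7 and 63.6 CPM in the WT E2 samples, with a log2 difference of 0.87 (SE 0.20, adjusted p = 0.0182). Kif11 had 70.8, 62.6 and 48.9 CPM in the KO E2 samples, against 45.8, 33.8 and 29.1 CPM in the WT E2 samples, with a log2 difference of 0.74 (SE 0.17, adjusted p = 0.0173). Neither gene overlapped between the estradiol groups. Kif15, a kinesin that helps to hold the spindle bipolar, had 20.6, 20.8 and 16.4 CPM in the KO E2 samples, against 13.9, 13.4 and 9.27 CPM in the WT E2 samples, with a log2 difference of 0.66 (SE 0.16, adjusted p = 0.0192). Smc2 had 54.9, 50.6 and 43.2 CPM in the KO E2 samples, against 38.4, 35.6 and 34.3 CPM in the WT E2 samples, with a log2 difference of 0.46 (SE 0.10, adjusted p = 0.0141). Of the 5 genes of chromosome structure called, Ncapd2 had overlapping groups, and the genes of mitotic entry gave a median of 0.15 and no call. Cdk1, for one, had 51.5, 41.96 and 36.1 CPM in the KO E2 samples, against 47.6, 39.1 and 42.8 CPM in the WT E2 samples, with overlapping groups. Without KO E2 sample 1 or KO E2 sample 2 the calls fell to 0 each, against 6.48% and 4.08% of all genes called higher. They fell to 1 without WT E2 sample 3, against 3.97%, and to 3 without WT E2 sample 2, against 5.11%. Leaving out KO E2 sample 3 gave 12, against 5.06%.

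Between the placebo groups, 0 of the 50 genes passed, against 0% of all genes called higher and 0.00688% called lower, and DESeq2 also called 0. The median log2 difference of KO Plb against WT Plb was -0.17, with 8 positive and 42 negative, and 3 genes (Cdk1, Nuf2 and Spc25) had an unadjusted p under 0.05 and a negative difference, against 4.2% of all genes. Cdk1 had 17.8, 15.3 and 23.3 CPM in the KO Plb samples, against 20.9 and 36.2 CPM in the WT Plb samples, and its difference was -0.60 on the log2 scale (95% interval -1.13 to -0.07, adjusted p = 0.538). Top2a had 54.2, 55.6 and 59.1 CPM in the KO Plb samples, against 64.8 and 75.7 CPM in the WT Plb samples, and its difference was -0.32 on the log2 scale (95% interval -0.67 to 0.04, adjusted p = 0.557), with both signs inside the interval. The 5 genes lower in every KO Plb sample than in both WT Plb samples were Nuf2, Ndc80, Spc25, Ncaph and Top2a, a share below the 13.8% of all genes. The signs rested on single WT Plb libraries, since 36 genes were positive without WT Plb sample 2 and 1 was positive without WT Plb sample 1.

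Levels were compared between genes only per length, as CPM per kb of exonic sequence in the GENCODE annotation of GRCm38. In KO E2 samples the highest levels per length were those of Ccnb2 (22.2 ± 4.41), Smc4 (22.1 ± 2.022), Ccna2 (19.9 ± 3.39), Cdc20 (18.3 ± 4.65), Mki67 (16.5 ± 2.40) and Top2a (16.5 ± 2.95 CPM per kb, SD, n = 3). The lowest were those of Kif18a (0.943 ± 0.232), Kif14 (1.13 ± 0.217) and Cdc25c (1.34 ± 0.198 CPM per kb, SD, n = 3). Neighbours in this order, such as Ccnb2, Smc4, Ccna2 and Cdc20, differed by less than the larger of their SDs. Transcript lengths in use in this tissue were not measured. Reads of Kif20a, Kif4, Ncapg, Cdc25c, Ccna2 and Prc1 could also be shared with genes on the opposite strand, which cover 29.3%, 15.1%, 13.4%, 12.7%, 12.5% and 11.1% of their exonic bases.

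A second list of 57 mitosis genes outside the 50 was read out in the same fit, together with lists of the machinery around them. In KO E2 against KO Plb samples, 32 of the 57 rose and 0 fell, with a median log2 difference of 0.95, whereas in WT 0 of 57 passed by edgeR's quasi-likelihood test, with a median of 0.44, 28 at an unadjusted p under 0.05 and 9 called by DESeq2. Casc5, which encodes the kinetochore scaffold KNL1, had 16.1, 14.7 and 13.4 CPM in the KO E2 samples, against 5.92, 5.91 and 4.93 CPM in the KO Plb samples, with a log2 difference of 1.40 (SE 0.17, adjusted p = 0.00402). Kifc1, a minus-end-directed kinesin, had 18.5, 15.02 and 12.8 CPM in the KO E2 samples, against 4.86, 5.81 and 6.80 CPM in the KO Plb samples, with a log2 difference of 1.41 (SE 0.20, adjusted p = 0.00532). Both had separate groups in KO. Without KO Plb sample 2, KO Plb sample 1 or KO E2 sample 2 the list had 14, 16 and 17 genes called in KO, and in WT leaving out WT Plb sample 2 or WT E2 sample 3 gave 6 and 2.

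The lists of the surrounding machinery gave smaller medians. Of 17 APC/C subunits, coactivators and partners, 2 rose in KO and 0 fell, with a median of 0.01. They were Fbxo5, which encodes the APC/C inhibitor EMI1 and had 17.03, 21.2 and 12.4 CPM in the KO E2 samples, against 7.82, 8.35 and 6.80 CPM in the KO Plb samples, with a log2 difference of 1.14 (SE 0.20, adjusted p = 0.0114), and Fzr1, which encodes the coactivator CDH1 and had 48.7, 50.7 and 45.00 CPM in the KO E2 samples, against 38.7, 37.6 and 37.8 CPM in the KO Plb samples, with a log2 difference of 0.34 (SE 0.08, adjusted p = 0.0416). Of 13 cohesin genes, 2 rose and 0 fell, with a median of 0.15. They were Esco2, an acetyltransferase that locks cohesin onto DNA in S phase, with a log2 difference of 1.47 (SE 0.16, adjusted p = 0.00197), and Cdca5, which encodes sororin, a protector of cohesion, with a log2 difference of 1.37 (SE 0.19, adjusted p = 0.00532). The cohesin ring subunit Rad21 did not pass, at 239.9, 221 and 198.8 CPM in the KO E2 samples, against 170.0, 179 and 173 CPM in the KO Plb samples, with a log2 difference of 0.34 (SE 0.10, adjusted p = 0.0934).

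Among 23 transcription regulators of the cell cycle, 6 rose in KO and 0 fell, with a median of 0.27. E2f8 had 16.5, 27.01 and 15.8 CPM in the KO E2 samples, against 6.13, 6.61 and 5.69 CPM in the KO Plb samples, with a log2 difference of 1.68 (SE 0.22, adjusted p = 0.00432). E2f7, like E2f8 a repressor of the E2F family, had 8.26, 8.37 and 6.57 CPM in the KO E2 samples, against 3.47, 3.09 and 3.78 CPM in the KO Plb samples, with a log2 difference of 1.16 (SE 0.19, adjusted p = 0.00812). E2f2, an activator of the same family, had 48.3, 63.98 and 38.7 CPM in the KO E2 samples, against 17.6, 20.6 and 11.1 CPM in the KO Plb samples, with a log2 difference of 1.61 (SE 0.22, adjusted p = 0.00551). All 3 were higher in every KO E2 sample, and in WT 0 of the 23 passed by edgeR's quasi-likelihood test, with 3 at an unadjusted p under 0.05 and 0 by DESeq2. Without KO Plb sample 1 the list had 3 genes called in KO. Of 7 inhibitors of cyclin-dependent kinases, Cdkn2d and Cdkn2c rose, with log2 differences of 0.72 and 0.57, and Cdkn2b had a difference of -0.79 that did not pass (adjusted p = 0.107).

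Of 41 genes of G1 and S phase, 12 rose in KO and 0 fell, with a median of 0.51, and in WT 0 rose and 2 fell, with a median of -0.01. The 2 were the D-type cyclins Ccnd2, with a log2 difference of -0.82 (SE 0.17, adjusted p = 0.0349), and Ccnd3, with a log2 difference of -0.49 (SE 0.11, adjusted p = 0.0393). Rrm2, the regulated subunit of ribonucleotide reductase, had 59.3, 73.2 and 51.9 CPM in the KO E2 samples, against 26.3, 25.7 and 24.9 CPM in the KO Plb samples, with a log2 difference of 1.26 (SE 0.12, adjusted p = 0.000866), and 37.6, 37.8 and 34.8 CPM in the WT E2 samples, against 32.8 and 38.2 CPM in the WT Plb samples. Its WT groups overlapped, unlike its KO groups. Uhrf1, which keeps DNA methylation through replication, had 48.8, 54.7 and 36.1 CPM in the KO E2 samples, against 26.00, 24.4 and 18.99 CPM in the KO Plb samples, with a log2 difference of 1.01 (SE 0.17, adjusted p = 0.011), and 23.2, 22.1 and 18.8 CPM in the WT E2 samples, against 30.1 and 23.3 CPM in the WT Plb samples. Rrm1, the large subunit of ribonucleotide reductase, rose in KO by 0.70. Leaving out KO E2 sample 2, KO Plb sample 1 or KO Plb sample 2 gave 3 called genes each in KO, and leaving out KO Plb sample 3 gave 5. The WT calls fell to 0 without WT E2 sample 1, WT E2 sample 2 or WT Plb sample 1, and to 1 without any of the other libraries except KO E2 sample 2 and KO Plb sample 3.

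**Figure D5:**
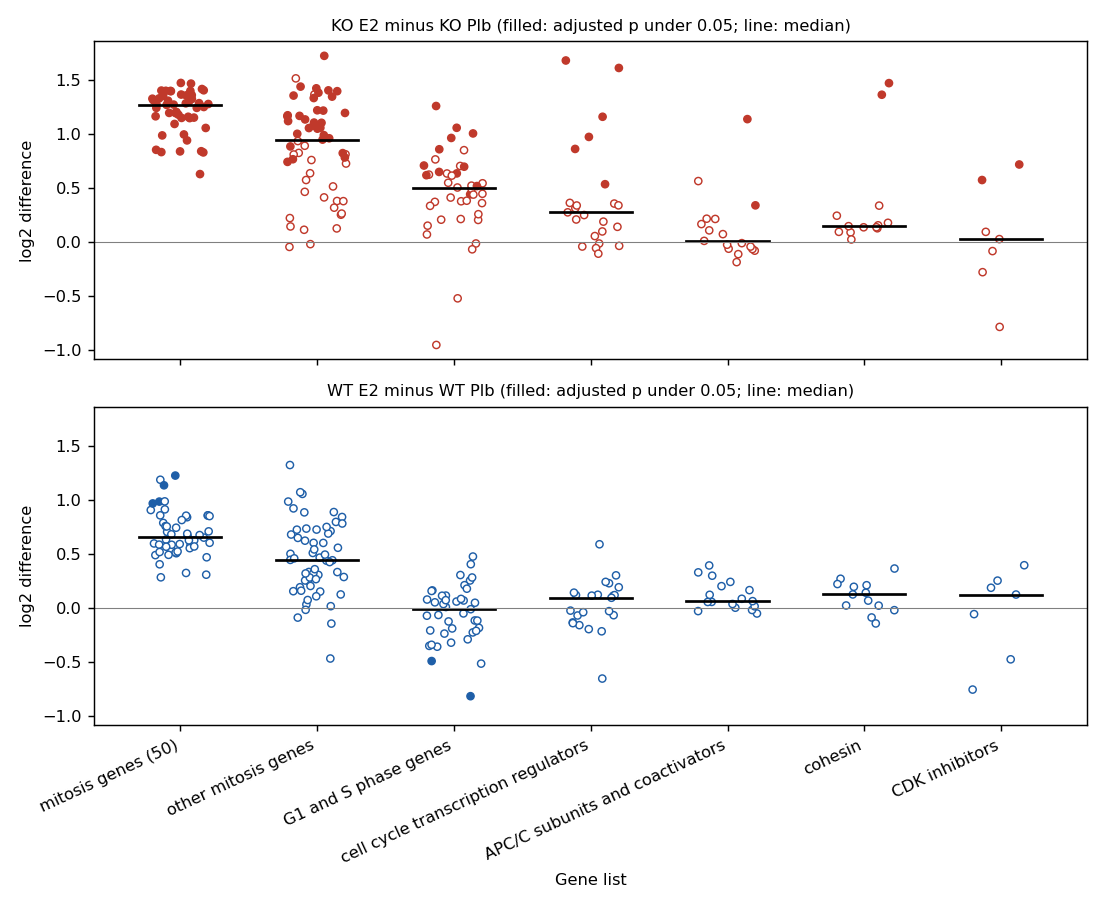
Log2 difference of estradiol against placebo (y axis) for each gene of 7 lists in KO (upper panel) and WT (lower panel), with filled dots for an adjusted p under 0.05 and black lines for list medians. In KO the medians were 1.27 for the 50 mitosis genes, 0.95 for other mitosis genes, 0.51 for G1 and S phase genes and 0.27 for transcription regulators, and in WT they were 0.66, 0.44, -0.01 and 0.09.

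In the authors' deposited table of KO E2 over KO Plb, 50 of the 50 had an adjusted p under 0.05 and a positive log2 fold change, against 4.71% of all genes with an adjusted p, and 37 were among the 100 genes with the smallest p, Mki67 being first. In the authors' deposited table of WT E2 over WT Plb, 12 of the 50 were higher under the threshold, against 1.34% of all genes. In the authors' deposited table of KO E2 over WT E2, 9 were higher, against 8.08% of all genes, Cdca8 of the chromosomal passenger complex among them. In that of KO Plb over WT Plb, 0 of the 50 were under the threshold.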

How the data were processed

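Poly-A RNA libraries of 11 bulk tissue samples were sequenced on a HiSeq instrument, per the labels' protocols. The submitters' processing notes name TopHat, bcl2fastq 2.17 and the mm9 build, and for the gene counter, annotation and strand setting nothing is given in the sources used here. Raw read counts per gene symbol make up the deposited table, with totals of 15.7 to 25.5 M per sample. Per the file headers, the authors' comparison tables hold log2 fold changes with p-values raw and adjusted, a test statistic used here only as a score not printed, and a mean signal of normalized counts over samples.

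From the counts, genes were filtered with filterByExpr (minimum count 10, minimum total 15), which left 14531 of 23420 symbols and 99.98% of the counts. Libraries were scaled by TMM in edgeR 4.0.16 (R 4.3.3), and a quasi-likelihood model with 1 mean per group was fitted over all 4 groups, with 7 residual degrees of freedom and a common coefficient of variation of 15.8%. The 5 contrasts were adjusted by the Benjamini-Hochberg method over all genes tested. DESeq2 1.42.0 and limma-voom (limma 3.58.1) served as alternatives, and the scripts were tested on simulated data. Genes with 0 counts have a floor of 3 counts, which covers counting error only. No 2 samples of a group were alike within sampling noise.

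Same-numbered samples deviated together in KO E2 and KO Plb (correlations of 0.290, 0.386 and 0.142 across genes). In WT E2 and WT Plb they did not, with correlations of -0.203 for sample 1 and -0.159 for sample 2. The pairing by replicate number was read from the KO data and not from a stated litter or batch. It entered only the alternative with replicate number as a block. The main fit did not pair the samples, so its calls, SEs and adjusted p in KO are unpaired. Per-sample values are given, within each role, for the 2 genes with the smallest p in KO, for the 3 with the largest p of the 50, for up to 8 called in other comparisons, and for up to 3 genes of each other list. Genes named beside a count of 5 or fewer, and others outside that rule, were chosen after their values were seen. The members and lists were chosen with earlier results of these data known.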

Additional observations from a re-analysis of the deposited data

Results flagged for a closer look

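None of the 50 mitosis genes had an estradiol effect that passed the test of a difference between KO and WT, but 7 genes of the neighbouring cell cycle lists did. They were 3 of 41 G1 and S phase genes, 2 of 23 transcription regulators, 1 of 57 other mitosis genes and 1 of 13 cohesin genes. Of 17 APC/C genes and 7 inhibitors of cyclin-dependent kinases, 0 passed. Of all genes, 0.84% were called with a positive difference. Each is given as the KO effect minus the WT effect on the log2 scale, tested as the interaction term in edgeR's quasi-likelihood fit, with p adjusted by the Benjamini-Hochberg method over all genes. E2f2 differed by 2.27 (adjusted p = 0.0093), being higher in each KO E2 than in each KO Plb sample and lower in each WT E2 than in each WT Plb sample. E2f8 differed by 1.56 (adjusted p = 0.0451), Uhrf1 by 1.33 (adjusted p = 0.0285) and Rrm2 by 1.21 (adjusted p = 0.00491). Esco2 differed by 1.11 (adjusted p = 0.0466) and Gtse1 by 0.98 (adjusted p = 0.0496). Ccnd3 differed by 0.94 (adjusted p = 0.00737), with 140.1, 163 and 137 CPM in the KO E2 samples, against 107, 109.5 and 106 CPM in the KO Plb samples, and 82.5, 74.2 and 94.2 CPM in the WT E2 samples, against 119 and 116 CPM in the WT Plb samples. Without WT Plb sample 2 the number of called genes among the transcription regulators, E2f2 and E2f8 among them, was 0, and without WT Plb sample 2 and KO Plb sample 1 together the number among the G1 and S phase genes was 0. Among the other mitosis genes, Gtse1 in this test, the number was 0 without any 1 library except KO E2 sample 3 and WT Plb sample 1, which gave 1 and 2. Among the cohesin genes, Esco2 in this test, it was 0 without any 1 library except KO E2 sample 3, KO Plb sample 3 and WT Plb sample 1, and 0 with the replicate block. Neutrophil and B cell lineage markers differed between the genotypes in the same direction, and macrophage and osteoclast markers mostly in the other. Their part in these differences was not tested.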

How the results depend on the processing

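Of the 20 alternatives, all kept a positive difference and an unadjusted p under 0.05 for each of the 50 genes in KO E2 against KO Plb, and 24 genes were called in all 20. Those with a threshold of 0.1 or 0.01 on the adjusted p reuse the main fit, so their signs and unadjusted p repeat it. The number called there was 31 at an adjusted p under 0.01, against 0.612% of all genes called higher. It was 48 with the replicate block, against 3.73%. Leaving out 1 library outside WT Plb gave 27 to 47, against 0.691% to 3.31% of all genes. In WT E2 against WT Plb the number was 7 without the filter on low counts, 16 with DESeq2, 0 with limma-voom, 8 at an adjusted p under 0.1, 0 at an adjusted p under 0.01, 2 without WT Plb sample 2 and KO Plb sample 1 together, and 0 to 10 when 1 library was left out. The numbers do not pair the WT samples, and the replicate block gave 6 there, Cdc25c among them. For the KO effect minus the WT effect, DESeq2 called 3, against 2.24% of all genes with a positive difference. An adjusted p under 0.1 gave 1, against 1.95%, and the replicate block gave 0, against 1.69%. Leaving out 1 library outside WT Plb gave 0 to 1. Over the alternatives the median of that difference ran from 0.19 without WT Plb sample 2 and KO Plb sample 1 together, where Cdc20, Cdc25c, Cenpa, Kif2c and Prc1 were negative, to 0.75 without WT Plb sample 1. In that difference Cdc25c ran from -0.63 without WT Plb sample 2 and KO Plb sample 1 together to 0.12 without WT Plb sample 1, and Troap was -0.10 without KO E2 sample 1, -0.04 without KO Plb sample 2, -0.07 without WT Plb sample 2 and 0.31 without WT Plb sample 1, and the cause was not tested. In KO E2 against WT E2 the number was 0 at an adjusted p under 0.01, 4 when only these groups were fitted, 9 with the replicate block and 0 to 12 when 1 library was left out. In KO Plb against WT Plb it was 0 in every alternative. Leaving out a WT Plb sample leaves a lone one, assumed to vary like the samples of the other groups. The difference of effects could not be fitted on fewer than 4 groups. Depth limits the least counted genes, such as Cdc25c and Troap, the most.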
